A study of Mus musculus with 60 samples.

Results

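Trimethylation of histone H3 at lysine 27 (H3K27me3) was followed from day 3 to day 5 of differentiation in 2 mouse embryonic stem cell (ESC) lines without Tet1, KO1 and KO15, and each line's day 5 library was compared with its own day 3 library. These 4 libraries were taken by their labels (Tet1 KO, day 5 or day 3, no inhibitor) from the 30 H3K27me3 libraries and 30 control IgG samples of the series, 60 samples in all. Both lines were male, were derived from B6129S6F1 blastocysts and carried the Tet1 tm1Koh allele, and each is 1 line, so the replicate is the line. All cells were in N2B27 medium, with bFGF until day 3 and without it from day 3 to day 5, a protocol aimed at anterior neural progenitors. The other libraries used for comparison were KO1 and KO15 at day 5 with the Wnt inhibitor XAV939 (XAV, 5 µM from day 2), the MUT lines CM59 and CM69, which are clones with catalytically dead TET1, and the WT lines WT70 and WT72, all at day 5 and day 3. At day 0 and day 2 the KO lines were KO15 and KO25. Whether the libraries without XAV received its solvent is not given in the sources used here.

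H3K27me3 is written by Polycomb repressive complex 2 (PRC2) and marks genes that are silent but kept ready for later use. In ESCs it lies mostly over CpG-rich promoters of developmental regulators, often together with H3K4me3. As cells commit, the mark leaves lineage genes that are switched on and settles over genes that are being shut down, such as those of the pluripotency network. TET1 oxidises 5-methylcytosine and binds the same kind of CpG-rich promoter.

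In CUT&RUN, a nuclease tethered through an antibody cuts out the marked chromatin, and each library yielded a list of peaks. Merging the peaks of the 30 libraries gave 4512 regions, and the 3828 called in 2 libraries or more were kept. A promoter was counted as called where a peak reached within 1.5 kb of an annotated start site. A region or promoter called at day 5 in both KO lines and at day 3 in neither is termed gained, and the reverse is termed lost. A peak's strength is given as its percentile, the rank of its total signal among all peaks of the same library, where 100 is the strongest, and since signal is summed over the peak it grows with width. A site without a peak may still carry signal below the caller's threshold. More cells with the mark and more mark per cell cannot be told apart in these cultures, and the peaks do not measure which cell types each culture held. By the study's single-cell RNA sequencing, Tet1 KO cells at day 5 without XAV lay mainly in mesoderm and endoderm clusters. With XAV, most lay in ectodermal clusters.

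The DNA just before the start sites of 6 promoters that the results turn on is shown first, from RefSeq on build GRCm38.p6, plus strand, with each CG dinucleotide in capitals because CpG-rich DNA is where the mark lies. Sox2 (chr3:34649745-34649994), Pou5f1 (chr17:35505782-35506031) and Nes (chr3:87970843-87971092) were gained, whereas Id3 (chr4:136143572-136143821), Lfng (chr5:140607091-140607340) and Foxc1 (chr13:31806396-31806645) were lost.
Sox2: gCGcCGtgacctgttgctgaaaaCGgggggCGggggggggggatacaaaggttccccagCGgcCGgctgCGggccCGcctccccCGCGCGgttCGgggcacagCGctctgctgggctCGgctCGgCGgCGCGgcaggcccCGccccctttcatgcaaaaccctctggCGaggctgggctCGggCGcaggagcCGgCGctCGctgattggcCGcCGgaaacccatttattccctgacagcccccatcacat
Pou5f1: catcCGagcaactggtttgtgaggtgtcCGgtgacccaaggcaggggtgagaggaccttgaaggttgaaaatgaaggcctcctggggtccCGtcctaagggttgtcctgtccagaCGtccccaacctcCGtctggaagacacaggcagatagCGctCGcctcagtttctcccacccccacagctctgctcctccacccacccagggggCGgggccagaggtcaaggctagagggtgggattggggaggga
Nes: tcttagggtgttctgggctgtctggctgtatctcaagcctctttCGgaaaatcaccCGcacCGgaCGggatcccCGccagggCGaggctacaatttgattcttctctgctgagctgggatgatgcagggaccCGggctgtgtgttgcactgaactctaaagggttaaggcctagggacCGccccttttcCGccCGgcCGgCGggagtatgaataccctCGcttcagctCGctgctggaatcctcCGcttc
Id3: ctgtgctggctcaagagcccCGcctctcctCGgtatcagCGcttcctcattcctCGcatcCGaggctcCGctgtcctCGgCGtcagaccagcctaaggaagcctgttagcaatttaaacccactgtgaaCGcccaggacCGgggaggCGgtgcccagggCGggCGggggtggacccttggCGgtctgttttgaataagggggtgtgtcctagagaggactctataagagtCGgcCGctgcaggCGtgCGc
Lfng: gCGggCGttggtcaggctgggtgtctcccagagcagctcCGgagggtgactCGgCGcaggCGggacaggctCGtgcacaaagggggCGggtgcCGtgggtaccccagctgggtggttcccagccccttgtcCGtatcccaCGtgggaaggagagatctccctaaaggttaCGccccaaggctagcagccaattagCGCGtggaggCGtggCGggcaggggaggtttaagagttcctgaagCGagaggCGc
Foxc1: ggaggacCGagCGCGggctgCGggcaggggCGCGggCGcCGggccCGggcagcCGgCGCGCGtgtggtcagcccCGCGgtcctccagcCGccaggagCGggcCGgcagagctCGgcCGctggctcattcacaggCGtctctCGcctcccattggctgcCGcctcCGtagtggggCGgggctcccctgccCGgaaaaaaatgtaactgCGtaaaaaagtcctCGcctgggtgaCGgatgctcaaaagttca

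These 250-base stretches held 27 (Sox2), 8 (Pou5f1), 15 (Nes), 18 (Id3), 18 (Lfng) and 29 (Foxc1) CG dinucleotides. Gained promoters had a median of 15 (282 of 373 matched to RefSeq) and lost promoters a median of 16.5 (38 of 65 matched), against 6 over all 27025 RefSeq promoters. The interquartile ranges of gained (8 to 23) and lost promoters (9.25 to 22.8) overlapped almost entirely, and that of all promoters was 2 to 16. Beside the kept regions there was no such excess. Median CpG per kb over whole regions was 23.7 for gained, 23.8 for lost and 23.5 for all 3828 regions.

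Called peaks covered more of the genome at day 5 in both KO lines. Read depth is unknown, and its part in these totals was not tested. KO1 and KO15 had 2122 and 2738 peaks at day 5, against 1877 and 1849 at day 3. Peaks covered 14.5 and 16.2 Mb at day 5, against 11.98 and 8.51 Mb at day 3, a mean of 15.3 ± 1.23 and 10.2 ± 2.45 Mb (SD, n = 2 each) and 1.52-fold more at day 5. The days did not overlap for either measure, but with 2 pairs the exact sign-flip test (two-sided) cannot fall below p = 0.5, which is the value it gave for both. Individual peaks were wider as well. Of the regions called on both days, 68.8% of 1406 were wider at day 5 in KO1 and 88.5% of 1348 in KO15. Of the bases covered only at day 5, 53.5% in KO1 and 53.5% in KO15 lay in regions not called at day 3, and the rest extended peaks that were already there.

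**Figure D1:**
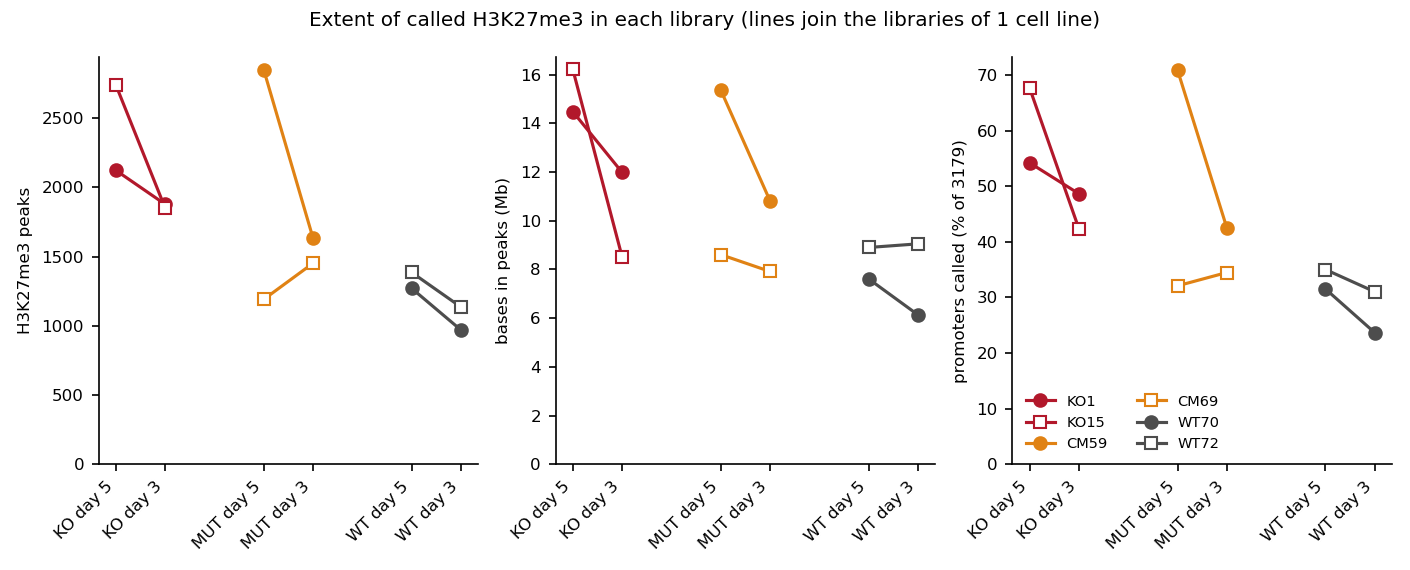
Number of H3K27me3 peaks, bases in peaks (Mb) and percent of 3179 promoters called (vertical axes) for KO, MUT and WT lines at day 5 and day 3 (horizontal axis), with 1 point per library and a line joining the libraries of 1 cell line. Both KO lines had more of each at day 5 (54.2% and 67.6% of promoters, against 48.6% and 42.3% at day 3), and the MUT line CM69 had fewer peaks at day 5 than at day 3.

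A larger increase in KO lines than in the other genotypes was not shown beyond the spread between lines. The share of promoters called changed by 5.57 points in KO1 and 25.3 points in KO15, while the changes were 28.4 points in CM59, -2.39 in CM69, 7.86 in WT70 and 3.99 in WT72. The mean difference between KO and the other 4 lines was 5.98 points (exact permutation test over lines, two-sided, p = 0.8, with 0.0667 the smallest p possible), and it was -3.89 points without KO15 and 15.9 points without KO1. For the number of peaks the difference was 190.5 (p = 0.867) and for covered bases 3.46 Mb (p = 0.2) by the same exact test.

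Of the 3828 regions, 465 (12.1%) were gained and 75 (1.96%) were lost, 1221 were called in all 4 libraries and 1245 in none of them. Of the 3179 promoters called in at least 2 libraries, 373 (11.7%) were gained and 65 (2.04%) were lost. KO15 changed more than KO1: taken alone, KO15 had 1047 regions called at day 5 and not at day 3 and 106 in the reverse direction, while KO1 had 510 and 261. Only 46 regions went one way in one line and the opposite way in the other. The number of peaks per library bears on the balance: when each library was limited to its 1849 strongest peaks, 254 regions were gained and 166 lost. Gains then outnumbered losses by less.

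Gained and lost regions were mostly weak peaks. Gained regions had a median percentile of 23.5 in KO1 and 38.7 in KO15 at day 5, and lost regions a median of 24.4 in KO1 and 23.7 in KO15 at day 3. Regions called in all 4 libraries stood at 66.5 and 73.7 at day 5, against 62.7 and 58.1 at day 3. In KO1 at day 5, 52.0% of gained regions were in the lowest 25% of that library, and in KO15 26.7%. A promoter lay in 81.7% of gained and 68.0% of lost regions, beside 78.3% of all 3828, and 10.1% of gained and 21.3% of lost regions lay between genes. Their GC content was alike, with medians of 50.6% for gained, 51.2% for lost and 50.6% for all regions.

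Genes of the pluripotency network and of the early neural plate had the largest shares of gained members of the 29 lists. Of 28 naive and primed pluripotency genes, 11 (KO1) and 14 (KO15) promoters were called at day 5, against 7 and 5 at day 3, a mean change of 23.2 points, and 5 were gained and 0 lost. At equal numbers of peaks the change was 14.3 points, which was also its value without KO15, and over all 3179 promoters the called share changed by 5.57 points in KO1 and 25.3 points in KO15. Of 13 SoxB, Pou3f and neural progenitor genes, 8 and 10 were called at day 5, against 6 and 6 at day 3, with 4 gained and 0 lost. Sox2 and Pou3f1 belong to both lists. Of the members called in at least 2 of the 30 libraries, 5 of 18 (27.8%) and 4 of 10 (40.0%) were gained, beside 11.7% of all such promoters. The pluripotency list also rose in WT lines, to 8 and 8 called at day 5 from 4 and 5, with 3 gained. In CM59 and CM69 it went to 14 and 5 from 6 and 6, with 2 gained. For the SoxB list WT lines had 3 and 4 called on both days. CM59 and CM69 had 8 and 5 at day 5, against 5 and 5, with 1 gained.

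Sox2, the SoxB factor that maintains both ESCs and neural progenitors, gained a promoter peak next to an older one. At day 3 the only peak near it ended 7.36 kb before the start site at chr3:34650405 in both KO1 and KO15. At day 5 a single peak of 10.9 kb ran across the start site in KO1, and in KO15 a peak of 5.25 kb and a second of 4.06 kb reached past it. The region (chr3:34637946-34651759) is 90.2% intergenic and 9.81% exonic. Its relative signal, the log2 total signal less the median of the library, was 0.41 and 0.17 at day 5, against -1.14 and -0.99 at day 3, and it rose by 1.35 ± 0.23 (SE) on the log2 scale (limma, adjusted p = 1.2e-05). The highest signal within the peak changed less (0.41 in log2 units) and failed the test. The promoter itself was no longer gained at equal numbers of peaks or among the upper 75% of peaks.

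Sox3, the X-linked SoxB gene of the neural plate, was called at percentiles 45.5 and 60.0 at day 5 and had no peak at day 3. Pou3f1, a POU factor that promotes neural fate, stood at 59.3 and 62.8, and Nes, which encodes the progenitor intermediate filament nestin, at 29.2 and 35.6, again with no peak in either line at day 3. Sox3 and Pou3f1 were mid-ranking peaks and Nes a weaker one, and each appeared in both lines. Of all 30 libraries, the Sox2 and Sox3 promoters were called in the KO1 and KO15 day 5 libraries alone, and 14 of the 373 gained promoters had that pattern.

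Pou5f1, which encodes the core pluripotency factor OCT4, was called at percentiles 24.1 in KO1 and 51.3 in KO15 at day 5 (peaks of 4.24 and 6.34 kb) and not at day 3, and among the upper 75% of peaks it was no longer gained. Utf1, a chromatin-bound factor of undifferentiated cells, was stronger, at 67.8 and 75.1. Dnmt3a, the de novo DNA methyltransferase, was called at 9.59 and 53.3, and like Sox2 it was not gained at equal numbers or among the upper 75% of peaks. Unlike Sox2 and Sox3, the Pou5f1 and Utf1 promoters were also called in both WT lines at day 5 and in neither at day 3.

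**Figure D2:**
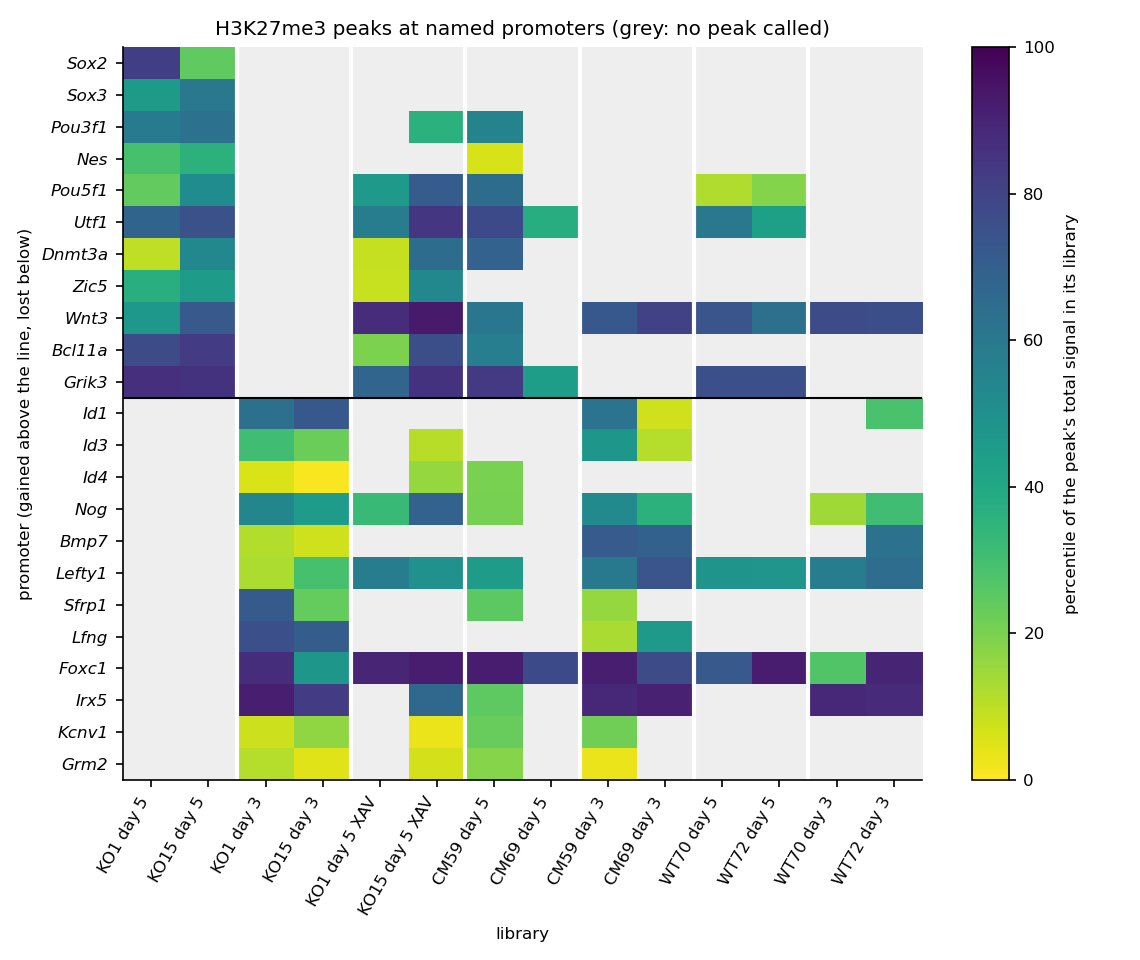
Percentile of the H3K27me3 peak (colour, 0 to 100; grey where no peak was called) at 11 gained and 12 lost promoters (vertical axis) in 14 libraries (horizontal axis). Sox2 and Sox3 are coloured in the KO day 5 libraries only, whereas Foxc1 is coloured in every library shown except KO day 5.

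Ion channels, receptors and other effector genes of mature neurons gained the mark at about the share of all promoters. Of the members called in at least 2 of the 30 libraries, 17.1% of potassium channel, 11.1% of calcium and sodium channel, 13.6% of receptor and 12.2% of synapse, transporter and cytoskeleton genes were gained, beside 11.7% of all such promoters. Of 48 potassium channel genes, 32 and 39 promoters were called at day 5, against 27 and 27 at day 3, with 7 gained and 1 lost, Kcnv1, whose peaks were weak (7.43 and 16.5 at day 3). Kcnj9, a G-protein-gated channel, was called at 58.3 and 57.4, Kcnd2, of the A-type current, at 31.8 and 52.0, and Kcnh2, the ERG channel, at 24.6 and 46.8. The mean change of 17.7 points fell to 5.21 points at equal numbers of peaks. Of 31 calcium and sodium channel genes, 15 and 16 were called at day 5, against 12 and 11 at day 3, with Cacna1s and Cacna2d1 gained. Among the upper 75% of peaks Kcnv1, Kcnh2, Cacna1s and Cacna2d1 were no longer gained or lost, and Cacna1s was not gained at equal numbers of peaks or with an overlap of at least 500 bp either.

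Of 63 neurotransmitter receptor genes, 27 and 33 promoters were called at day 5, against 23 and 20 at day 3, with 6 gained and 1 lost, the metabotropic glutamate receptor gene Grm2 (11.0 and 4.95 at day 3). Grik3, a kainate receptor gene, was among the strongest of all gains, at percentiles 86.0 and 85.5 with peaks of 10.4 and 8.04 kb. Grm6 stood at 45.7 and 70.7, the nicotinic receptor gene Chrna4 at 48.1 and 39.8, and the dopamine receptor gene Drd1 at 24.4 and 32.2. Grm2 and Drd1 were no longer lost or gained among the upper 75% of peaks, nor was Drd1 at equal numbers of peaks. The mean change over the list was 13.5 points, and 5.56 points at equal numbers of peaks. Of 74 synapse, transporter and cytoskeleton genes, 37 and 43 were called at day 5, against 32 and 29 at day 3, and 6 were gained and 0 lost. Among these, the axonal motor gene Kif1a was at 54.4 and 65.2, the neurofilament genes Nefl at 61.8 and 56.3 and Ina at 39.6 and 59.6, and Bdnf, a neurotrophin gene, at 39.1 and 47.1.

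Neuronal transcription factor genes were already marked for the most part. Of the members called in at least 2 libraries, 2 of 23 subtype factors (8.70%) and 2 of 13 proneural factors (15.4%) were gained, again beside 11.7%. Of 23 neuron subtype factors, 21 and 23 were called at day 5, against 20 and 20 at day 3. Bcl11a, of cortical projection neurons, was gained at percentiles 76.6 and 82.7 and Bcl11b, its relative, at 46.9 and 73.9. The proneural gene Neurod1 was gained at 30.2 and 45.8 and Atoh7, of retinal ganglion cells, at 23.4 and 29.3. Zic5 (37.3 and 45.3), Olig1 (58.6 and 77.5), Dbx2 (17.3 and 40.5) and Grhl2 (36.3 and 64.3), which encode factors of the neural tube and, for Grhl2, surface ectoderm, were the other gains among lists of neural and ectodermal factors. Zic5 was no longer gained with an overlap of at least 500 bp, Dbx2 among the upper 75% of peaks, and Atoh7 among the upper 75% or at equal numbers of peaks.

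The BMP, Nodal and TGF-beta pathway went the other way. In BMP signalling, ligands such as BMP4 and BMP7 act through SMAD proteins to switch on the Id genes, whose products block neural differentiation factors, and NOG binds and holds off the ligands. Of 36 genes of the list, 9 (KO1) and 13 (KO15) promoters were called at day 5, against 20 and 18 at day 3. The change was -22.2 points on average. Of the 29 members called in at least 2 of the 30 libraries, 6 were lost and 0 gained, beside 2.04% of all such promoters lost. It was the 1 list of 29 that was lower in both lines, whereas 15 lists were higher in both. It kept its direction at equal numbers of peaks (-26.4 points) and among the upper 75% of peaks (-13.9 points).

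Among the lost targets of BMP, Id1 had peaks of 5.11 and 4.78 kb at day 3, at percentiles 62.9 and 72.4, and none at day 5. Id3 stood at 30.6 and 22.6 at day 3. Id4, with 5.62 and 0.892, was close to the weakest peaks of its libraries. Id2 was called in KO1 at day 3 and in none of the other 3 libraries. Of the secreted factors, Nog was at 54.3 and 44.7 at day 3, Bmp7 at 11.7 and 7.06, and Lefty1, which encodes a Nodal antagonist, at 12.4 and 29.0. Id1 and Nog were mid-ranking peaks, whereas Id3, Id4, Bmp7 and Lefty1 were weak enough to be neither gained nor lost among the upper 75% of peaks. Bmp7 and Id4 are named to complete the count of 6 and were chosen after their values were seen. Bmp4 kept a peak in all 4 libraries, with a relative signal of -0.99 and 0.06 at day 5, against 0.66 and 0.66 at day 3 (log2 change -1.12 ± 0.22, limma adjusted p = 9.9e-05). The same list gave 11 and 12 called promoters at day 5 in WT lines, against 9 and 15 at day 3, and 21 and 11 in MUT lines, against 21 and 20 at day 3. By the same rule, 4 promoters of the list were lost and 0 gained in both MUT lines, and 1 was lost and 2 gained in both WT lines. With XAV, KO1 and KO15 had 18 and 23 of these promoters called at day 5, and the ligand and co-receptor genes Nodal and Tdgf1 were called in both, with no peak in the 4 libraries without it.

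Other signalling lists were mixed. Of 41 Wnt ligand and modulator genes, 24 and 25 were called at day 5, against 21 and 21 at day 3. Of the members called in at least 2 libraries, 14.7% were gained and 2.94% lost. Among all such promoters 11.7% were gained and 2.04% lost. The streak ligand gene Wnt3 was gained at 46.8 and 72.2, the receptor gene Fzd10 at 51.2 and 21.5, the antagonist gene Dkk2 at 27.9 and 46.1 and the R-spondin gene Rspo4 at 35.5 and 38.7, while Sfrp1, which encodes a secreted Wnt antagonist, was lost (71.6 and 23.7 at day 3), though not among the upper 75% of peaks. Wnt3 was not a new site of the mark, since it was called in both KO lines at day 0 and at day 2. Among 42 FGF, Hedgehog, Notch and retinoic acid genes, Fgf17, Fgf20 and Jag2 were gained and Lfng, a glycosyltransferase that tunes Notch receptors, was lost (75.6 and 70.6 at day 3). That is 8.57% gained and 2.86% lost of the members called in at least 2 libraries. Fzd10, Fgf20 and Jag2 were no longer gained at equal numbers or among the upper 75% of peaks. Foxc1, a forkhead factor of paraxial mesoderm, had promoter peaks of 11.9 and 2.45 kb at day 3 and none at day 5. Irx5, a patterning factor, had no promoter peak at day 5, against percentiles of 91.7 and 82.1 at day 3.

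**Figure D3:**
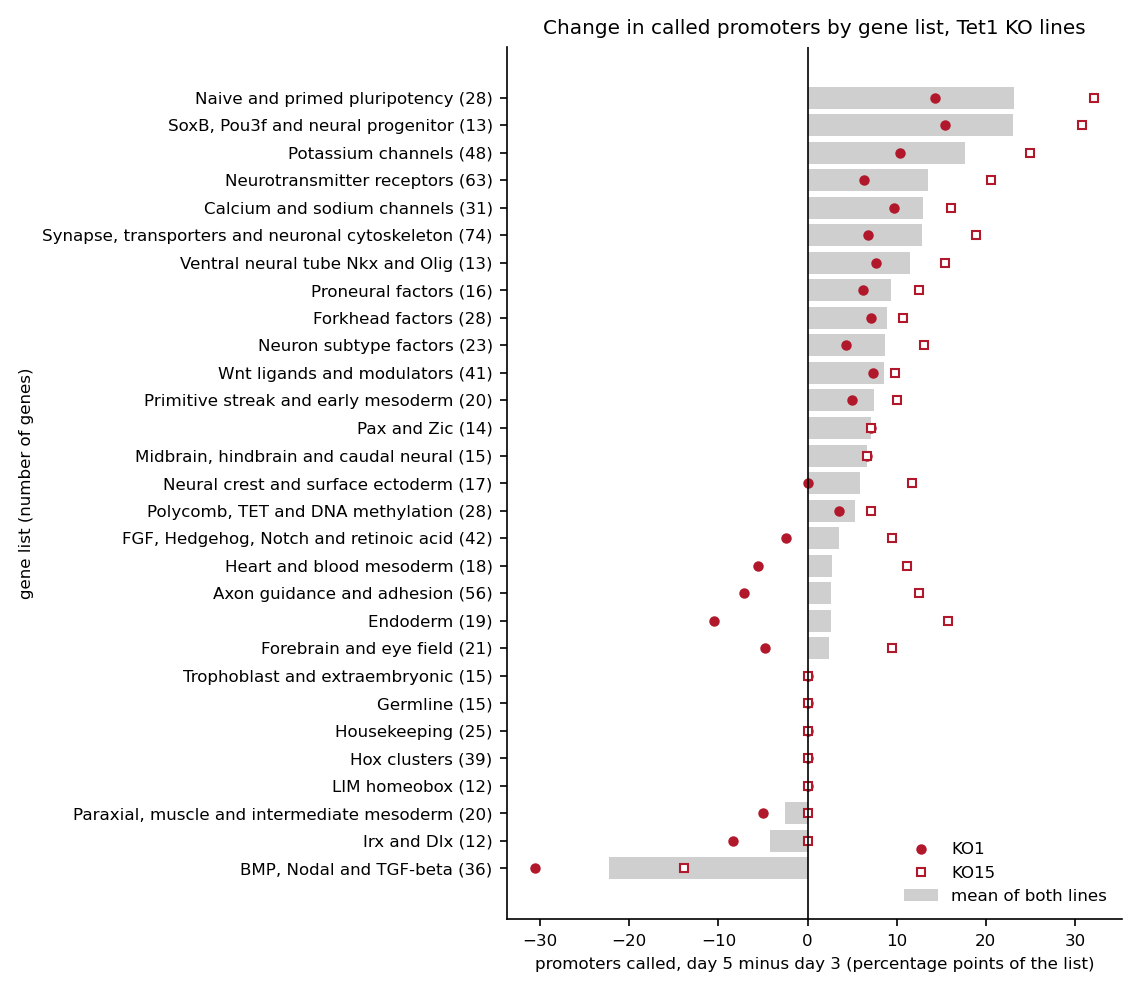
Change in the percent of each list's promoters called, day 5 minus day 3 (horizontal axis, percentage points), for 29 gene lists (vertical axis, number of genes in brackets), with 1 marker per KO line and a grey bar for their mean. Pluripotency and SoxB lists lie at the top, with means of 23.2 and 23.1 points, and the BMP, Nodal and TGF-beta list lies alone at the bottom, at -22.2 points.

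At the extremes of Polycomb occupancy the calls themselves were the same on both days. All 39 Hox genes were called in all 4 libraries, as were 11 of 12 LIM homeobox genes, and none of 25 housekeeping and 15 germline genes was called in any of the 4. A call does not measure signal: by the limma test described further on, 2 of the 5 regions that hold the Hox clusters were lower at day 5, those of Hoxb (-0.45, adjusted p = 0.0281) and Hoxd (-0.41, adjusted p = 0.0490), and of 11 LIM homeobox regions Lhx1 and Lmx1b were lower and Lhx9 higher. By height none of the Hox regions passed. Among the loci followed whatever they did, the forebrain genes Pax6 (percentiles 99.2 and 99.3 at day 5, 99.0 and 97.3 at day 3), Six3 (97.5 and 96.5 at day 5, 97.8 and 97.4 at day 3) and Lhx5 (97.2 and 96.7 at day 5, 96.9 and 94.3 at day 3) stayed among the strongest peaks. The cardiac and endoderm genes Gata4 (94.2 and 96.0 at day 5, 93.3 and 94.2 at day 3) and Nkx2-5 (94.0 and 96.3 at day 5, 91.9 and 94.1 at day 3) did the same. Otx2, a forebrain gene, was called only in KO15 at day 5, at percentile 8.49. The Tet1 promoter was not called in any of the 30 libraries, and this mark does not test the knockout itself.

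By strength over all genes, the leading gains were Tmem59l (96.2 and 97.7), Cacng6 (88.8 and 91.0), Ltbp4 (85.0 and 88.0), Grik3, Bcl11a together with A830031A19Rik in the same region, Tub, Slc35d3, Foxi3 and Nfib. Cacng6 encodes a calcium channel subunit and Ltbp4 a protein that binds latent TGF-beta. Tmem59l lies in a region that stayed called on both days (chr8:70478542-70504060), as was true of 11 of the 373 gained promoters, Sox2 among them, and of 12 of the 65 lost ones, among them Zfp593, Gm30191, Irx5, Foxc1 and the genes of the Ifnz cluster. With a promoter window of 3 kb, Tmem59l, Gm30191 and Gm13272 were no longer gained or lost. The leading losses were Zfp593 and Gm30191, which share a region and stood at 84.2 and 91.9 at day 3, Irx5, 3 genes of a chromosome 4 cluster around the interferon gene Ifnz (Gm13290, Gm13289 and Gm13272), Atoh8 (86.1 and 62.2), Lfng, and the protocadherin genes Pcdhga10 and Pcdhgb6, which also share a region (86.8 and 52.0). Genes that share a region share a peak and are not separate observations.

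Within the 1221 regions called in all 4 libraries, signal shifted as well. Relative signal was higher at day 5 at 111 regions (9.09%) and lower at 202 (16.5%) by limma with line as a block and an adjusted p below 0.05. Both lines moved the same way at 73.4% of the 1221 regions, 333 up and 563 down. By the height of the signal in place of its total, 116 were higher and 106 lower, of which 52 and 72 were among those of the main test. With within-library ranks in place of signal none passed (smallest adjusted p 0.0711, with 153 higher and 172 lower at an unadjusted p below 0.05), although 311 of the 313 kept their sign. Each region has only 1 residual degree of freedom, so the test leans on the variance shared over all regions. Before centring, the median log2 total signal of these regions was higher at day 5 by 0.20 in KO1 and 1.27 in KO15, so that lower here means lower relative to that shift.

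The 10 regions with a promoter that led by adjusted p among those lower at day 5 held genes of different kinds. At Cyp26a1 and Cyp26c1, which encode enzymes that degrade retinoic acid (chr19:37683207-37704873), relative signal was -0.99 and 0.33 at day 5, against 2.30 and 2.37 at day 3, a log2 change of -2.66 ± 0.20 (SE, limma adjusted p = 1.1e-14). At Lhx1, a regulator of streak mesendoderm and head organiser (chr11:84513020-84536539), it was -1.44 and 0.74 at day 5, against 2.33 and 2.44 at day 3 (-2.73 ± 0.23, adjusted p = 5.9e-13). Both lines fell at both loci, KO1 further. Gadd45b fell by 2.36 and Col13a1, a collagen gene, by 2.45 on the log2 scale, to almost the same level in each line. The largest change was at the Ifnz cluster (chr4:88771134-88812221), with -1.41 and -1.99 at day 5, against 2.47 and 2.63 at day 3. The other regions of the leading 10 held Myl3 and Pth1r (-1.86), Zfp593 (-1.85), Gm47283 on chromosome Y (-1.84), Trp73 (-1.53) and the imprinted genes Cdkn1c and Phlda2 (-1.50). For Trp73 and Cdkn1c the change in height was -0.17 and -0.16 and did not pass.

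Several neuronal genes were among the 10 leading regions with a promoter and higher signal. The largest rise of all, 2.33 on the log2 scale (limma adjusted p = 5.9e-13), was at a region with no promoter of a protein-coding gene (chr8:84732096-84754694), with 1.54 and 1.37 at day 5, against -0.93 and -0.82 at day 3. Among regions with a promoter, Unc5a, a netrin receptor gene (chr13:54943868-54958959), had a relative signal of 0.78 and 0.98 at day 5, against -0.60 and -1.14 at day 3 (1.75 ± 0.21, limma adjusted p = 1.6e-08). Hpcal4, a neuronal calcium sensor gene, rose by 1.51, the ephrin receptor gene Epha8 by 1.46, the kinesin gene Kif17 together with Sh2d5 by 1.44, the calcium-activated potassium channel gene Kcnma1 by 1.34, Garem2 by 1.31, Pak6 by 1.19, Pkp1 by 1.15 and Rbfox3, which encodes the neuronal marker NeuN, by 1.09. Brsk2, a neuronal polarity kinase gene, had 0.26 and 0.04 at day 5, against -0.78 and -1.32 at day 3 (1.19 ± 0.23, adjusted p = 1.1e-04), and Cacna1a had 0.49 and 0.42, against 0.00 and -0.89 (0.90 ± 0.22, adjusted p = 0.0015). Unc5a, Epha8 and Sox2 were named because of this test, so the separation of their day 5 and day 3 values is not further support. For Kif17, Sox2 and Garem2 the change in height did not pass.

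**Figure D4:**
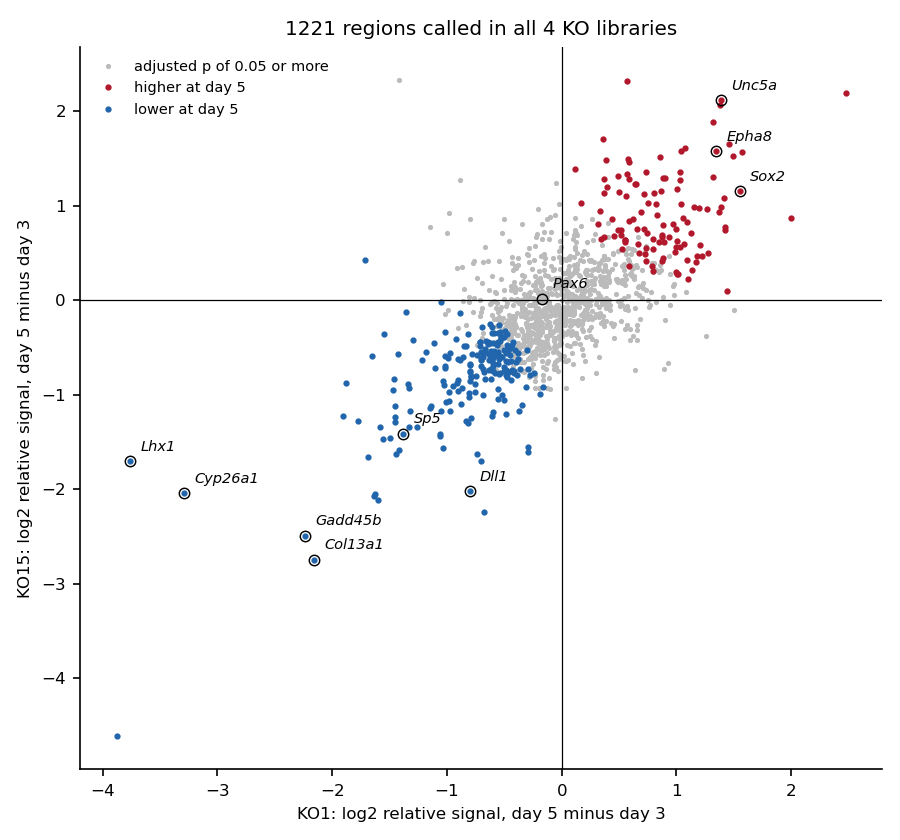
Log2 change in relative H3K27me3 signal from day 3 to day 5 in KO1 (horizontal axis) and in KO15 (vertical axis) at 1221 regions called in all 4 libraries, with regions past the test in red (higher, 111) and blue (lower, 202) and named regions ringed. Sox2, Unc5a and Epha8 lie at the upper right, Lhx1 and Cyp26a1 far to the lower left, and Pax6 at the centre.

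Among regulators of the germ layers, more regions were lower than higher by total signal. Of 9 endoderm regions 4 were lower (Foxa1, Foxa2, Gata6 and Sox17) and 0 higher, of 12 streak and early mesoderm regions 4 were lower (Cdx1, Hand1, Lhx1 and Sp5) and 0 higher, and of 13 paraxial and intermediate mesoderm regions 6 were lower and 0 higher, beside 16.5% lower over all regions. Of 11 heart and blood mesoderm regions 4 were lower and 2 higher (Fli1, 0.65, and Lmo2, 1.05). Foxa2, a pioneer factor of endoderm and axial mesoderm, had -0.17 and 0.98 at day 5, against 1.37 and 1.34 at day 3 (-0.95 ± 0.20, limma adjusted p = 2.6e-04), and Sox17, a definitive endoderm factor, had 0.70 and 1.21, against 1.75 and 1.23 (-0.53 ± 0.19, adjusted p = 0.0303). For Sox17 the fall was almost wholly in KO1 and did not pass by height, without the block or without the trend. By height, 1 of the 9 endoderm, 1 of the 12 streak and 5 of the 13 paraxial regions were lower, and of the 11 heart and blood regions 1 was higher and 0 lower. Over all 1221 regions 106 were lower and 116 higher by height. The endoderm and streak shares by height were thus near that of all regions. Eomes (0.49 ± 0.25, adjusted p = 0.152) and T (-0.31 ± 0.23, adjusted p = 0.362) in the streak list did not pass, nor did Gata4 (-0.38), Nkx2-5 (-0.16), Six3 (-0.41, adjusted p = 0.0519), Lhx5 (-0.25), Sox1 (-0.20) and Pax6 (-0.08).

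Over all 1221 regions, 16.5% were lower and 9.09% higher by total signal. Of 18 Wnt regions, 8 were lower and 0 higher, among them Wnt5a (-0.90), Wnt11 (-0.87), Wnt1 (-0.67) and Wnt2b (-0.92). Of 17 axon guidance regions 8 were lower, including Ntn1 (-1.13) and Slit2 (-0.93), and 2 were higher, Unc5a and Epha8. Of 16 FGF, Hedgehog, Notch and retinoic acid regions 6 were lower, including the Notch ligand gene Dll1 (-1.41), Ptch1 (-1.15) and Shh (-0.91), and Fgf9 was higher (0.94). Synapse genes were the 1 list of neuronal effector genes with more higher than lower regions, 5 (Brsk2, Kif17, Nrxn2, Rbfox3 and Slc6a2) against 2 of 26. By height there were 2 lower and 1 higher for Wnt, 4 lower and 2 higher for axon guidance, and 4 higher and 2 lower for synapse. These stand beside 106 lower and 116 higher of all 1221 regions by height.

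Where else the gained and lost regions were called was examined next, without a test, since the libraries of 1 line are related. With XAV, 31.2% (KO1) and 61.5% (KO15) of the 465 gained regions were called at day 5, against 14.1% and 37.7% of the 2083 regions not called at day 3 in KO. Of gained regions, 38.3% were called with XAV in neither line, against 62.0% of the 2083 and 38.7% of all 3828. Gained promoters called with XAV in neither line numbered 122 and included Nes, Sox2, Sox3, Bdnf, Kif1a and Grin2b. In MUT lines at day 5, gained regions were called at 81.5% in CM59 and 10.1% in CM69 (42.2% and 2.59% of the 2083), and in WT lines at 13.1% and 14.8% (4.27% and 5.04%). CM59 also had the most peaks of the MUT and WT day 5 libraries (2847). The 2083 include the 465 gained regions. Gained regions also met the minimum of 2 libraries through the KO day 5 calls that define them, whereas the others needed a call in another library. The 2083 are thus not a separate or like background, and these shares are a description only. In all 4 MUT and WT lines the share of gained regions called exceeded that of the 2083, and differences between the lines in this were not tested. Of the 373 gained promoters, 36 were also gained in both MUT lines and 40 in both WT lines. Over all 3179 promoters, 109 were gained in both MUT lines and 155 in both WT lines.

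At day 3, 69.3% and 60.0% of the 75 lost regions were called in CM59 and CM69, against 37.7% and 30.5% of all 3828 regions, and 18.7% and 29.3% in WT70 and WT72, against 20.4% and 26.5%. In the WT lines these shares were close to those of all regions. At day 5 the shares were 36.0% and 1.33% in the MUT lines, against 65.1% and 27.4% of all regions, and 5.33% and 9.33% in the WT lines, against 27.5% and 31.1%. Of the 65 lost promoters, 22 were also lost in both MUT lines and 8 in both WT lines. Over all 3179 promoters, 35 were lost in both MUT lines and 27 in both WT lines. With XAV the KO lines had 33.3% and 49.3% of the lost regions called at day 5, against 43.0% and 60.8% of all regions.

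Before day 3, shares are given beside those of all regions without a day 3 peak, gained regions included. With both KO lines pooled, the shares of gained regions that were called lay close to them. At day 0, 51.6% of gained regions were called in KO15 or KO25, against 49.0% of the 2083, and 24.1% at day 2, against 22.2%. In KO15 alone 30.5% were called at day 0 and 4.95% at day 2, against 21.6% and 5.33% of the 2083. Of lost regions, 52.0% were called at day 0 and 68.0% at day 2, against 63.4% and 51.9% of all 3828, and in KO15 alone 38.7% and 56.0%, against 43.7% and 33.0%. Pou3f1, Nes and Bcl11a had peaks in both KO lines at day 0, none at day 2 or day 3, and peaks again at day 5, whereas Pou5f1, Utf1 and Dnmt3a had none at day 0 or day 2. The KO25 libraries carry a file name of another line in one of their labels, so values of KO15 alone are given beside the pooled ones.

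**Figure D5:**
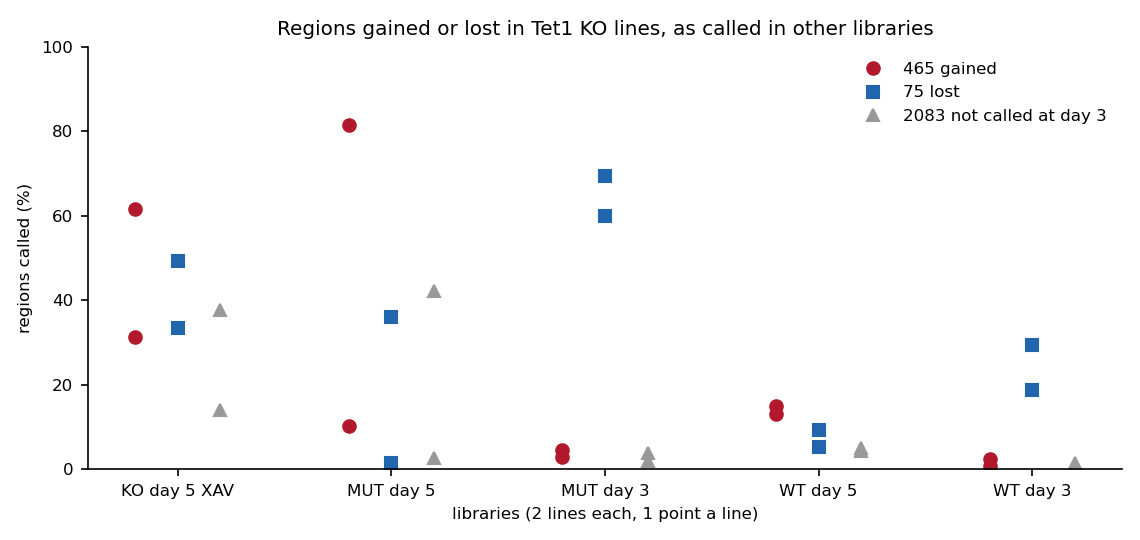
Percent of the 465 gained, 75 lost and 2083 regions not called at day 3 in KO (vertical axis) that were called in KO day 5 XAV, MUT and WT libraries (horizontal axis), with 1 point per library. Gained regions lie highest in CM59 at day 5 (81.5%), and lost regions in MUT lines at day 3 (69.3% and 60.0%). The 2083 regions include the 465 gained ones.

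Groups of regions that the study set apart by comparing KO with WT libraries, these 4 among them, were laid over the classes as a description only. Gained regions overlapped the group named gain-gain in KO at 62.4%, against 37.3% of all 3828 regions, and the group named loss-loss in KO at 6.67%, against 20.5%. Lost regions overlapped them at 29.3% and 26.7%. The selection used these libraries and is not independent of the gains.

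The difference in change between genotypes was fitted over the 640 regions called in all 12 KO, MUT and WT libraries of both days. Between KO and WT lines none passed (limma, smallest adjusted p 0.0896, with 106 at an unadjusted p below 0.05), and between KO and MUT lines 1 passed. At Lhx1 the change was -3.54 (KO1) and -1.52 (KO15), against -0.03 and 0.02 in the WT lines, a difference of -2.53 (adjusted p = 0.0896). At Col13a1 it was -1.93 and -2.57, against -0.85 and -0.65 (difference -1.50, adjusted p = 0.0896). These are the sizes at the named loci, and neither passed the threshold.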

How the data were processed

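H3K27me3 CUT&RUN libraries of KO1 and KO15 at day 5 and day 3 were compared, with MUT and WT libraries as a background. According to the study's methods, the authors used Trim Galore for trimming, local alignment by Bowtie to GRCm38.p6, Picard for duplicate removal and SEACR for peaks per library (stringent mode against IgG, version not given in the sources used here). The deposited peaks give a summed and a highest signal (coverage, whole numbers, not scaled for depth). Read depth is unknown. The smallest total signal of a peak is only a rough stand-in, since it also depends on the caller's threshold. It was 30234 (KO1) and 26196 (KO15) at day 5, against 23786 and 17868 at day 3. It was thus higher at day 5 in both lines, as were peak number and covered bases, and its part in these was not tested. Each peak list is 1 library. The deposited region groups, made by the authors with DiffBind 3.0.15, hold positions only and were used as a description.

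Regions were merged over all libraries, and promoters were those of 21866 protein-coding genes within 1.5 kb of a start site (overlap of at least 1 bp). No peak of 56359 lay past a chromosome end, and 71.9 to 78.2% of peaks lay at a promoter in the 4 libraries, against 12.8 to 14.6% after a shift of 1 Mb. Totals were compared by an exact sign-flip test over the 2 lines and, for KO against other lines, by an exact permutation test. In the 1221 regions called in all 4 libraries, log2 total signal less the library median was fitted with limma 3.58.1 (R 4.3.3, line and day, trend, Benjamini-Hochberg, adjusted p below 0.05). On simulated data with 200 changed regions of 1221, 99% of log2 changes of 1 were recovered with 7 false calls. The simulation gave every region the same residual SD (0.201), independent normal noise and no difference between lines. It checks the code under those conditions and does not give the error of the real fit. The lines are the same cells at both days and so pair the libraries, although their deviations barely correlated (0.0114). The exact tests measure only the spread between these lines. The limma p-values and SEs rest mostly on variance shared over regions, with 44.2 prior degrees of freedom against 1 residual per region. A small limma p-value therefore does not show that the 2 lines changed by a like amount at that region.

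The comparison and the 29 gene lists (760 genes) were chosen with earlier results of these data known. Named genes are up to 4 per list with the highest mean percentile, the 10 leading gained and lost promoters, the 10 leading regions per direction by adjusted p, list members past the test, and fixed loci. Alternatives were equal numbers of peaks, the upper 75% of peaks, other overlaps and windows, height, ranks, no block, no trend, all 12 libraries, and each line alone.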

Additional observations from a re-analysis of the deposited data

Results flagged for a closer look

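At the region of Nkx1-2, a homeobox gene of caudal neural progenitors (chr7:132589219-132607974), the change from day 3 to day 5 differed between KO and MUT lines in the test of the difference itself. Relative signal rose by 1.59 in KO1 and 1.12 in KO15, against -0.79 in CM59 and -0.73 in CM69, a difference of 2.11 on the log2 scale (limma over 12 libraries and 640 regions, adjusted p = 0.0248). In WT70 and WT72 the changes were 0.42 and -0.07, and the difference between KO and WT lines of 1.18 did not pass (adjusted p = 0.0896). Every KO line moved up and every MUT line down. It was the 1 region of 640 to pass between KO and MUT lines, where 73 had an unadjusted p below 0.05, and it was chosen by that result.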

How the results depend on the processing

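With 2 lines the counts lean on each line. Across the fits without replicate 1 or replicate 15, gained regions ranged from 510 to 1047, lost regions from 106 to 261, gained promoters from 418 to 953, lost promoters from 89 to 240, and the KO difference in the change of promoters called from -3.89 to 15.9 points, turning negative without KO15. With the 1849 strongest peaks of each library there were 254 gained and 166 lost regions, 223 gained and 141 lost promoters, and by construction a difference of 0 in peak number. Of the promoters of the main comparison, 221 of 373 gained and 63 of 65 lost ones remained. Equal numbers within each line, an alternative chosen after seeing the data, gave 256 and 166 regions and 227 and 141 promoters. Potassium channels then changed by 5.21 points (6.25 within line) and 7.29 in the upper 75% of peaks, against 17.7, and Wnt genes by 6.10 and 11.0 points, against 8.54. In the upper 75% of peaks 172 of the gained and 30 of the lost promoters remained. In the limma fit, lower regions numbered 106 by height, and ranks gave 0 higher and 0 lower (153 and 172 at an unadjusted p below 0.05), while all 12 libraries gave 36 and 54 of 640 regions. Without the replicate block, 92 were higher and 166 lower, and the unpaired exact p was 0.333 for peak number and covered bases and 0.667 for the KO difference. Of these, 90 and 164 were among the 111 and 202 of the main fit, and of the 32 named regions followed Sox17 alone lost its call. Changes that did not pass in the main fit turned sign at Gata4 (0.13) and T (0.10) by height, at Lhx5 (0.065), Sox1 (0.13), Nkx2-5 (0.13) and Pax6 (0.19) by ranks, and at Nkx2-5 (0.041) and Pax6 (0.12) with 12 libraries. The causes were not tested.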
